A study of Mus musculus with 21 samples.

Results

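Replacement of a single glutamate of histone H2B, E113, by lysine (E113K) was compared with replacement of the same glutamate by glutamine (E113Q) in mouse cells. RNA was sequenced from C3H/10T1/2 cells, an embryo-derived line of mesenchymal progenitor cells that can be driven to fat, cartilage, bone and muscle fates. The 3 E113K libraries and the 3 E113Q libraries were 6 of 21 in all, the others being E71K, E71Q, E76K, E76Q and wild-type H2B (WT), with 3 libraries each. Each group shared the cell line and the serum-containing medium, and no drug or differentiation stimulus was named. The study's design text calls the replicates independent and biological, but the labels do not say that they came from separate cultures or from separate lines, so p-values reflect the spread among these samples alone, and the substitution and any difference between lines cannot be told apart. How the mutant H2B was introduced is not given in the sources used here, and in these values an added copy cannot be told from the endogenous H2B genes. Values were in TPM, a transcript abundance scaled by length and to a fixed sum per library, so sequencing depth is unknown. Of 24091 genes in the table, 11871 averaged 1 TPM or more across these 6 libraries and were tested, and 6082 were listed at 0 in all 6.

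The nucleosome wraps DNA around a core of histones H2A, H2B, H3 and H4. Acidic side chains of H2A and H2B, E113 of H2B among them, form the acidic patch, a negatively charged hollow on the nucleosome face. Many chromatin proteins, among them remodelling enzymes, the H4 tail of a neighbouring nucleosome, the nuclear pore protein ELYS and the mitotic regulator RCC1, dock there, many of them through an arginine. Glutamine removes the charge of E113 while keeping a side chain of similar shape, and lysine replaces it with the opposite charge, so that E113K against E113Q sets charge reversal against charge loss at a fixed position.

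The codon of E113 in the reference genome is printed within 30 coding bases of 3 endogenous H2B genes. These stretches show how alike the gene copies are. They were read from the GRCm38 genome with GENCODE vM21 gene models. The capitals mark the codon of E113, counted without the initiator methionine.
Hist2h2be (chr3:96221493-96221522, plus strand): cacgccgtgtcgGAGggcaccaaggccgtc
Hist1h2bc (chr13:23684559-23684588, plus strand): cacgcggtgtcgGAGggcaccaaggccgtc
Hist2h2bb (chr3:96270079-96270108, plus strand): cacgctgtgtcgGAAggcaccaaggccgtc
Of 18 H2B genes read in this way, 17 had glutamate at this position, 16 of them with the codon GAG and 1, Hist2h2bb, with GAA. The exception, Hist1h2ba, encodes 126 residues against 125 in Hist1h2bc, and its glutamate codon stands 1 codon later in the window, so that its numbering is shifted. The 18 genes shared 10 distinct windows, so short reads from these copies can be assigned to the wrong gene. The other residues of the series are marked in the same manner in the next stretch of Hist2h2be, where the capitals are the codons of residues 71 and 76.
Hist2h2be (chr3:96221373-96221402, plus strand): atctttGAGcgcatagcaaacGAGgcttct

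The TPM of each of the 6 libraries summed to between 999900 and 999925. Across genes, log2(TPM + 1) correlated at 0.964 to 0.966 among E113K libraries and at 0.961 between E113Q replicates 1 and 2, but at only 0.942 and 0.943 between E113Q replicate 3 and its mates. Between the groups the correlation was 0.905 to 0.928, and its highest values, 0.919 to 0.928, belonged to E113Q replicate 3. The median gene had a standard deviation of 0.0855 over the E113K libraries and 0.169 over the E113Q libraries on the log2(TPM + 1) scale, against 0.0691 over E113Q replicates 1 and 2. The short locus Mir6236 took 2.61%, 2.91% and 2.19% of the summed TPM in E113K, and 3.32%, 4.5% and 9.31% in E113Q. E113Q replicate 3 therefore stood apart, and results that rest on it are also given without it. Mesenchymal markers, among them the filament protein gene Vim and the receptor gene Pdgfra, summed to 6736 to 6939 TPM in E113K and 6662 to 7872 TPM in E113Q. The leukocyte markers Tyrobp and Adgre1 were listed at 0 in all 6 libraries, 3 of 4 leukocyte markers, all 3 endothelial markers and both skeletal muscle markers stayed under 1 TPM, and the epithelial pair summed to 0.494 to 0.651 TPM in E113K, 2.03 to 3.55 TPM in E113Q and 5.70 to 6.64 TPM in WT. The glial gene Gfap reached 5.16 TPM in E113Q replicate 3 and stayed under 0.5 TPM in the other 5 libraries.

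The transcript profiles of E113K and E113Q cells differed widely. By limma on log2(TPM + 1), with p-values adjusted by the Benjamini-Hochberg method over all tested genes and called at an adjusted p below 0.05, 3463 genes differed, which is 29.2% of those tested. Among them 1842 rose in E113K (15.5%) and 1621 fell (13.7%), and 1035 changed at least 2-fold, 465 upward and 570 downward. All 3 E113K libraries lay above all 3 E113Q libraries for 3729 genes (31.4%) and below them for 2646 (22.3%), and 3354 of the called genes had such groups without overlap. Without E113Q replicate 3 the calls shifted toward falls, with 12% of tested genes called higher and 16.4% called lower, so that the share of calls that were rises went to 42.2%, against 53.2% with it. Of the 3463 genes, 2845 were called in the same direction without that library, and none was called in the opposite direction. The median log2 fold change over all tested genes was 0.05, and -0.01 after a median-ratio rescaling. In bulk RNA, fewer cells of a kind and less RNA per cell cannot be told apart.

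Set against WT, the E113Q cells were the nearer of the pair for most of these genes. The WT mean lay nearer the E113Q mean for 1381 of the 1842 genes that rose and for 1155 of the 1621 that fell, and nearer the E113K mean for the other 461 and 466. In the same fit 31.8% of genes were called higher and 19.5% lower in E113K than in WT, and 19% higher and 11.6% lower in E113Q than in WT. Both contrasts use the same WT libraries, so their lists were not compared with each other.

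Among the largest rises in E113K was Hvcn1, which encodes a voltage-gated proton channel (chromosome 5, 122206805 to 122242297). It stood at 34.7, 43.4 and 34.5 TPM in E113K, against 0.59, 0.533 and 0.291 TPM in E113Q and 0.371, 0.287 and 0.177 TPM in WT. The E113K libraries lay far above the others, with a log2 fold change of 4.71 ± 0.52 over E113Q (SE, limma, adjusted p = 3.93e-06). Dkk2, which encodes a secreted Wnt antagonist (chromosome 3, 132085266 to 132180304), showed the same contrast, with 15.8, 15.4 and 14.8 TPM in E113K, 0.581, 0.235 and 0.0747 TPM in E113Q and 0.0715, 0.0584 and 0 TPM in WT. Its log2 fold change was 3.67 ± 0.14 (limma, adjusted p = 8.26e-12). Hvcn1 and Dkk2 were thus expressed at an appreciable level in E113K alone among these 3 groups.

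In other large rises WT was not at the E113Q level. Plac8, which encodes a small cysteine-rich protein, had 61.5, 72.2 and 74.4 TPM in E113K and 7.49, 4.65 and 4.62 TPM in E113Q, against 201, 197 and 198 TPM in WT. Mgst1, a membrane-bound glutathione transferase, had 41.4, 47.6 and 46.7 TPM in E113K and 4.44, 5.59 and 3.1 TPM in E113Q, against 134, 148 and 131 TPM in WT. In both genes E113Q was lowest, E113K intermediate and WT highest, with no overlap, and E113K exceeded E113Q by 3.44 ± 0.2 and 3.13 ± 0.15 on the log2 scale (limma, adjusted p = 2.04e-09 and 9.97e-11). The AMPA-type glutamate receptor subunit gene Gria3 was at 13, 16.3 and 16.1 TPM in E113K and 0.743, 0.589 and 0.503 TPM in E113Q, with 4.98, 5.29 and 5.6 TPM in WT between them. Thrombomodulin, the endothelial and mesothelial cofactor that turns thrombin toward anticoagulant activity, is encoded by Thbd, which had 164, 176 and 173 TPM in E113K, 19.7, 21.9 and 8.8 TPM in E113Q and 5.82, 5.49 and 5.27 TPM in WT, so that E113K was highest and WT lowest. The X-linked locus 3830403N18Rik had 85.9, 82.7 and 96.5 TPM in E113K, 7.99, 5.31 and 7.15 TPM in E113Q and 78, 69.2 and 69.7 TPM in WT, so that E113Q alone was low. The other 5 of the 12 largest rises were short loci, Gm38670, Snora41, Mir215, Mir8091 and Mir6935, each of which overlaps a longer gene, so that reads of the host gene cannot be told apart from their own. The calls of Gm38670 and Mir215 were lost when any 1 of the 6 libraries was left out (adjusted p up to 0.0995 and 0.0772), and those of Mir8091 and Mir6935 when any library but E113Q replicate 3 was (up to 0.155 and 0.208). Mir6935 rose by 4.13, and by 1.91 without E113Q replicate 1.

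The largest falls included genes that were high in E113Q alone and others that were near 0 in E113K alone. Perp, which encodes a tetraspan protein of desmosomes and a p53 target (chromosome 10, 18845071 to 18857073), had 0.0522, 0 and 0 TPM in E113K, 29.4, 28.1 and 26.8 TPM in E113Q and 0.15, 0.611 and 0.674 TPM in WT, so that it was high only in E113Q of these groups. It fell by 4.84 ± 0.15 on the log2 scale (limma, adjusted p = 4.07e-13). G0s2, an inhibitor of the lipase ATGL, behaved likewise, with 0.29, 1.23 and 0.366 TPM in E113K, 14.2, 11.4 and 59.1 TPM in E113Q and 0.277, 0 and 0 TPM in WT. In contrast, Cdh19, a cadherin known from Schwann cell precursors, had 0.522, 0.715 and 0.736 TPM in E113K, 31.9, 36.7 and 38.4 TPM in E113Q and 11.9, 12.5 and 10.8 TPM in WT. Hr, a nuclear corepressor with histone demethylase activity, had 0.181, 0.157 and 0.125 TPM in E113K, 28.1, 26.9 and 14.4 TPM in E113Q and 8.07, 8.27 and 8.92 TPM in WT. The glutathione transferase gene Gstt3 had 0.319, 0.281 and 0.134 TPM in E113K, 16, 14.1 and 20.3 TPM in E113Q and 8.63, 9.61 and 8.6 TPM in WT. In these 3 genes E113K lay below and E113Q above WT without overlap, and the log2 fold changes were -4.46 ± 0.28, -4.33 ± 0.26 and -3.83 ± 0.13 (limma, adjusted p = 3.42e-09, 2.04e-09 and 1.02e-12). The small RNA loci Mir7655 and Snord72, inside Mllt10 and Rpl37, also fell. Mir7655 was listed at 0 in all E113K and all WT libraries and had 72.6, 37.6 and 23.3 TPM in E113Q.

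**Figure D1:**
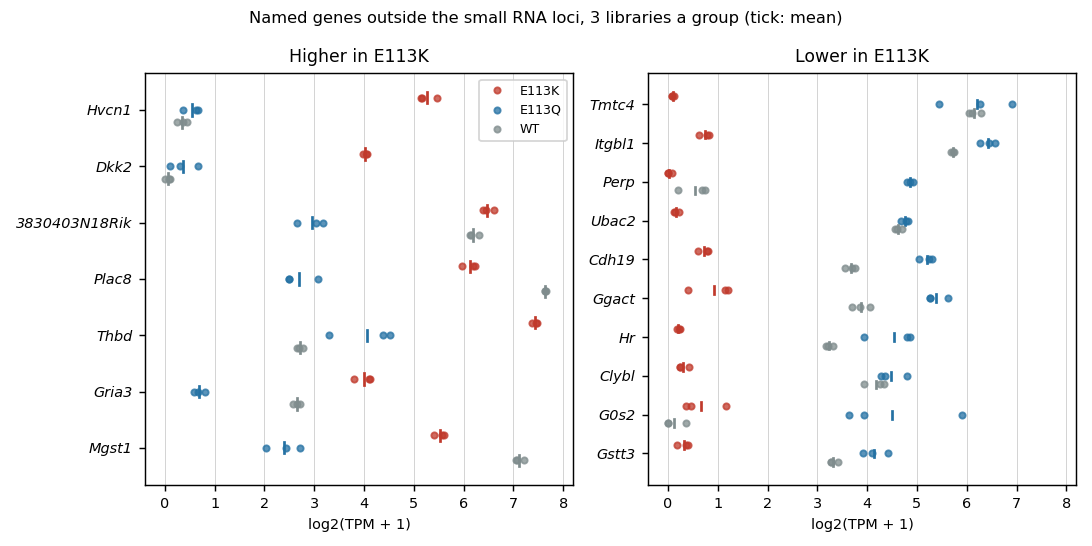
Log2(TPM + 1) of the genes with the largest rises (left) and falls (right) in E113K outside the small RNA loci, with 1 point a library and a tick at the mean of 3 libraries. E113K is drawn above E113Q and WT in each row, and in every row the E113K and E113Q points do not overlap.

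The remaining 5 of the 12 largest falls, Tmtc4, Itgbl1, Ubac2, Ggact and Clybl, all lay at the end of chromosome 14. Tmtc4, an O-mannosyltransferase gene (chromosome 14, 122918971 to 122983285), had 0.0858, 0.0531 and 0.0541 TPM in E113K, against 75.9, 42.4 and 119 TPM in E113Q and 68.2, 65 and 77.3 TPM in WT, and Ubac2 had 0.0905, 0.0958 and 0.171 TPM in E113K, against 26.3, 24.5 and 27 TPM in E113Q. The last 18 tested genes of the chromosome, from Uggt2 to Itgbl1 (118982006 to 123978865), were all called lower, with log2 fold changes of -0.89 to -6.11 and a median of -2.06. Its last 5 genes, Zic2, Pcca, Ggact, Tmtc4 and Itgbl1, formed the only run of at least 4 neighbouring tested genes in the genome that were all called and changed by at least 2 on the log2 scale in 1 direction.

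Chromosome 14 also held the densest rises. Of its 407 tested genes, 36.9% were called higher and 18.4% lower, with a median log2 fold change of 0.28, against 0.05 over all genes. The rises were dense in parts of its middle. Between 20 and 30 Mb 24 of 46 genes were called higher and 2 lower. The counts were 25 of 36 and 3 between 40 and 50 Mb, and 65 of 103 and 2 between 50 and 60 Mb. The stretch from 30 to 40 Mb broke this block, with 9 of 47 higher, 3 lower and a median of 0.08. Beyond 70 Mb the direction turned, with 2 of 49 higher and 24 lower between 70 and 80 Mb, and 0 higher and 17 of 17 lower between 120 and 130 Mb. The turn was not seen throughout, as 2 of 14 were higher and 3 lower between 100 and 110 Mb. Among the other chromosomes, 17 (27.1% higher, 7.32% lower, median 0.23) and 16 (24.6% and 7.95%, median 0.19) leaned upward most. Chromosomes 2 (23.8% and 9%, median 0.18) and X (21.9% and 10.7%, median 0.15) came close to them. Chromosomes 11 (6.84% and 23%, median -0.14), 8 (7.73% and 22%, median -0.16) and 15 (10.3% and 21.1%, median -0.13) leaned downward. All of these medians kept their sign after the rescaling. Against WT the E113K and E113Q medians were 0.42 and 0.17 for chromosome 14 and -0.03 and -0.29 for chromosome 17. They were 0.35 and 0.11 for 16, 0.22 and -0.03 for 2, and 0.32 and 0.12 for X. For 11, 8 and 15 they were -0.09 and 0.03, 0.25 and 0.38, and -0.002 and 0.07. Over all tested genes they were 0.16 and 0.08. Chromosome 17 thus stood lower in E113Q than in WT, and chromosome 8 stood above WT in both mutants. Gene copy number was not measured, and its part in these blocks was not tested.

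**Figure D2:**
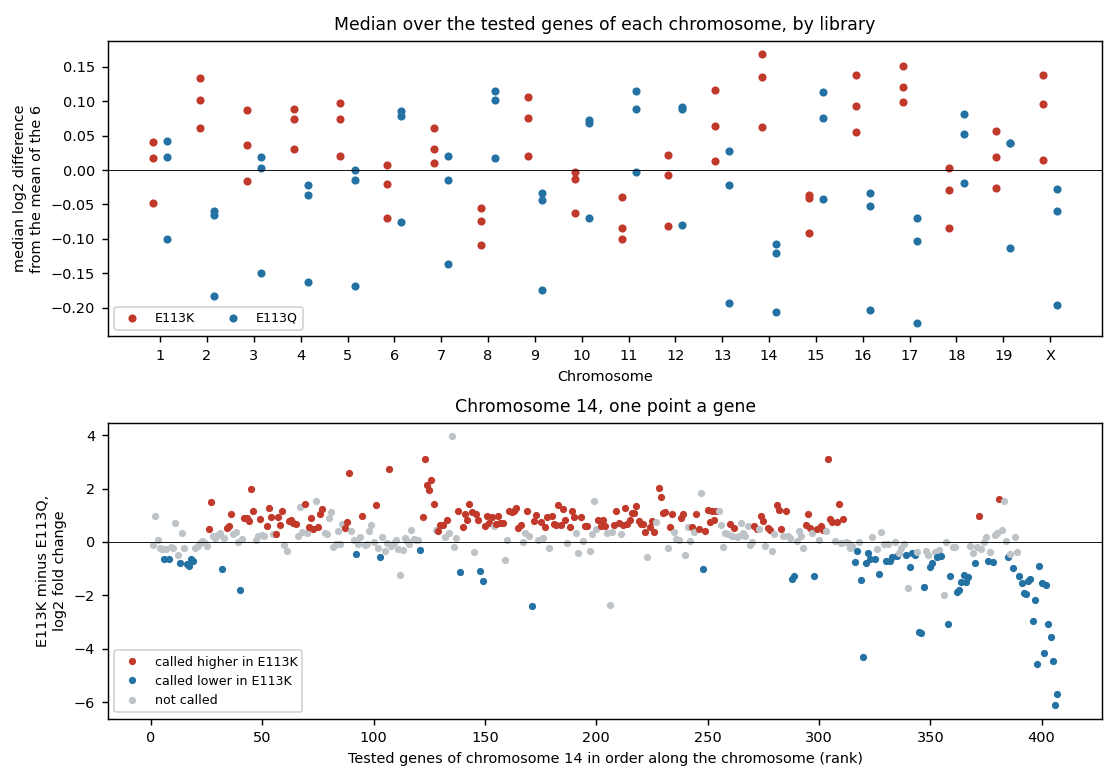
Top, median over the tested genes of each chromosome of the difference of a library from the mean of the 6 (log2), with 1 point a library and E113K left of E113Q. Bottom, E113K minus E113Q log2 fold change of the 407 tested genes of chromosome 14 in their order along it, where called rises crowd the middle and all of the last 18 genes are called falls.

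Of 55 gene lists, 50 had at least 5 tested members. In 18 of these more members were called lower than higher in E113K, and in 30 more were called higher. By median fold change the cell division lists stood at the low end, with histone genes, cartilage genes and targets of the stress factor ATF4 next. Basement membrane genes, sterol and fatty acid synthesis, matrix proteases and other matrix lists stood at the high end. Lists for which the share in both directions was at or below that of all genes included cytosolic ribosomal proteins, with 3 higher and 2 lower of 81, heat shock and unfolded protein response genes, with 0 and 4 of 33, and nuclear-encoded respiratory chain genes, with 0 and 6 of 61. After the rescaling 28 respiratory chain genes, 12 heat shock genes and 12 ribosomal protein genes were called lower, so that the count of falls in these lists rests on the scaling.

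**Figure D3:**
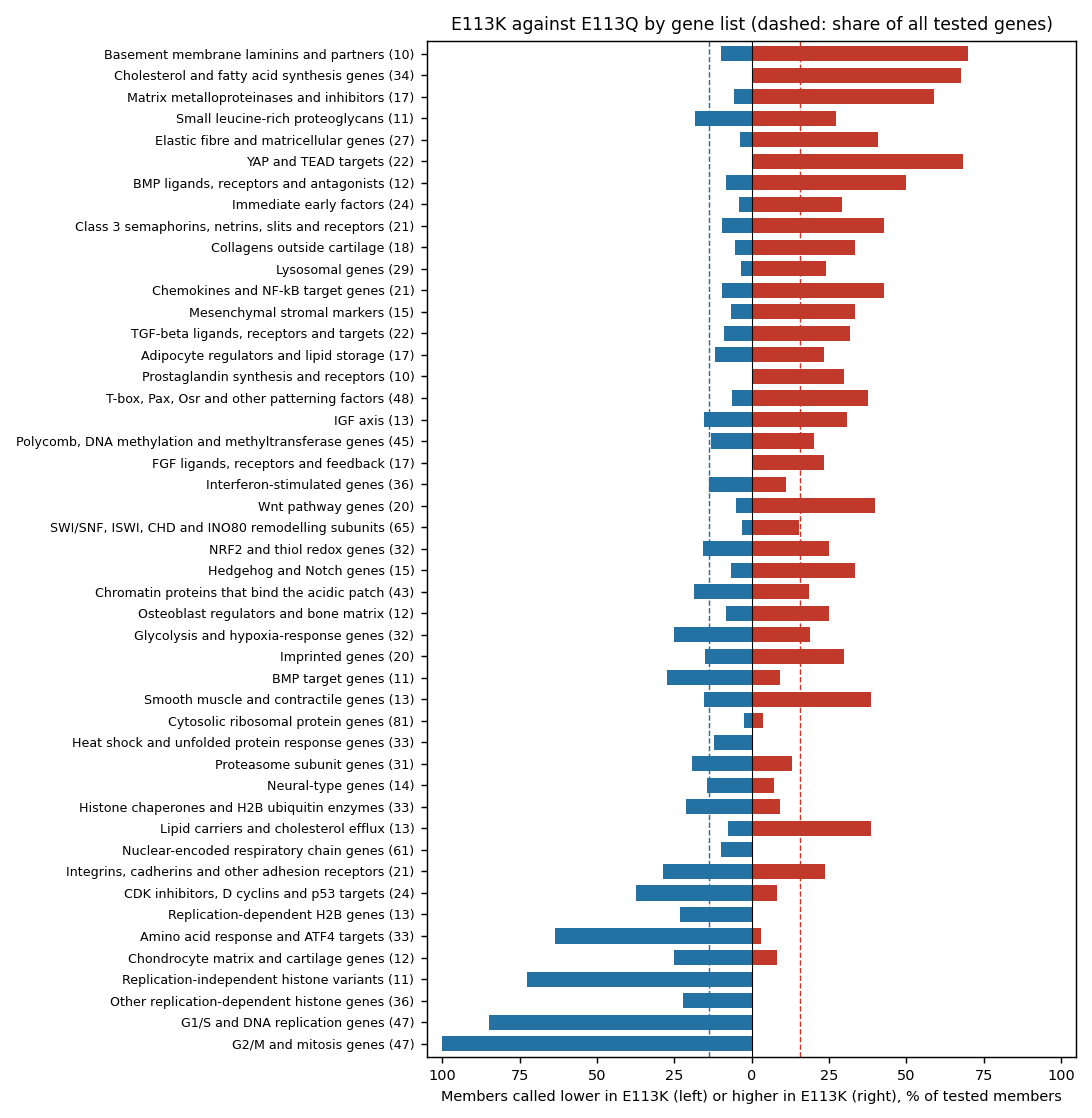
Share of the tested members of each gene list that was called higher in E113K than in E113Q (right) or lower (left), for lists with at least 10 tested members (number in brackets), ordered by median log2 fold change. Dashed lines mark 15.5% and 13.7%, the shares over all tested genes. The G2/M list reaches 100% lower, and the sterol, YAP and basement membrane lists lie near 70% higher.

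All 47 tested genes of G2 phase and mitosis fell in E113K, with a median log2 fold change of -1.77. The proliferation marker Mki67 had 8.48, 10.04 and 9.32 TPM in E113K, 48.9, 45.7 and 13 TPM in E113Q and 37.7, 41.1 and 43.3 TPM in WT. The E113K values were the lowest, and E113Q replicate 3 lay far nearer to them than to its mates, which were above every WT library. Mki67 fell by 1.64 ± 0.36 (limma, adjusted p = 0.00237). Ckap2, a microtubule-associated spindle protein, had 9.35, 8.22 and 10.4 TPM in E113K and 104.7, 99.6 and 19.6 TPM in E113Q, and Hmmr, a hyaluronan-binding spindle factor, 10.2, 11.2 and 13.4 TPM in E113K and 104, 104 and 26.4 TPM in E113Q. For both, the 3 groups kept the pattern of Mki67. Prc1, which bundles microtubules of the central spindle, and the kinesin gene Kif20a had log2 fold changes of -2.22 ± 0.39 and -2.21 ± 0.5 (limma, adjusted p = 0.000447 and 0.00298).

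Taking the median over the G2/M list relative to the WT mean, the E113K libraries stood at -2.25, -2.17 and -2.22, and the E113Q libraries at 0.19, 0.17 and -1.6 (log2). E113Q replicates 1 and 2 were thus slightly above WT and replicate 3 well below it, while still above E113K. Without replicate 3 the median difference was -2.38 and again 47 of 47 members were called lower. Against WT, 47 members were called lower in E113K and 2 in E113Q. Fitting the E113 libraries by themselves gave 38 calls, and the count was 40 to 47 when 1 of the 6 was left out.

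Stretches of promoter are printed for Ckap2 and Hmmr because their list moved as 1 block. Each runs from 150 bases before to 50 bases after the RefSeq start (GRCm38.p6), written 5′ to 3′ on the strand of the gene. Capitals mark TTTGAA, the core of the cell cycle homology region, and CCAAT, the box bound by NF-Y, on either strand.
Ckap2 (chr8:22185770-22185969, minus strand): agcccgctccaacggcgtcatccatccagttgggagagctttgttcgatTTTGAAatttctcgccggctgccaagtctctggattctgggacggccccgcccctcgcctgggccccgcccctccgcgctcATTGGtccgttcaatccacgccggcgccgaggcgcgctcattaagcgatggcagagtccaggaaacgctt
Hmmr (chr11:40733388-40733587, minus strand): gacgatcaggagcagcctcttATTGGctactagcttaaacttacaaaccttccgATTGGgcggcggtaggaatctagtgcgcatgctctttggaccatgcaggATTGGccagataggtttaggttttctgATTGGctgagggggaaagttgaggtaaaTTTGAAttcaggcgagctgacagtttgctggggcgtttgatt
Ckap2 holds 1 of each motif and Hmmr 1 TTTGAA and 4 CCAAT, with no overlap between them. In windows from 250 bases before to 50 bases after the start, TTTGAA was found in 32 of 39 G2/M genes with a window (82.1%), against 14.4% of 9288 tested genes, and CCAAT in 79.5%, against 44.1%. These motifs are known from promoters of this class of genes, so the shares describe the list and add nothing on the comparison.

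Genes of G1/S transition and DNA replication fell as well, 40 of 47 with a median of -1.08 and no member called higher. Mcm5, a subunit of the replicative helicase, had 14.4, 14.7 and 12.6 TPM in E113K, 89.4, 81.5 and 32.8 TPM in E113Q and 87, 75.2 and 85.8 TPM in WT. E113Q replicates 1 and 2 were at the WT level, replicate 3 lay between, and E113K was lowest. The log2 fold change was -2.09 ± 0.34 for Mcm5, -1.8 ± 0.34 for thymidine kinase Tk1, -1.77 ± 0.33 for the licensing factor Cdt1 and -1.51 ± 0.27 for the helicase subunit Mcm3 (limma, adjusted p = 0.000209, 0.000792, 0.000642 and 0.000527). Without E113Q replicate 3 44 members were called lower with a median of -1.41, and 30 to 37 were called lower without any other E113 library. Against WT, 46 members were lower in E113K and 22 in E113Q. The promoter of Mcm3 is shown because it holds a pair of E2F-type motifs next to the start, marked in capitals as TTTNNCGC on either strand.
Mcm3 (chr1:20820263-20820462, minus strand): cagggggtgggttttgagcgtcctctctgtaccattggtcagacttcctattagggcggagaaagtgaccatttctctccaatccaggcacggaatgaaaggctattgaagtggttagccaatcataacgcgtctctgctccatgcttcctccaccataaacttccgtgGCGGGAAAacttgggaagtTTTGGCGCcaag
TTTNNCGC was found in 17 of 40 genes of the list with a window (42.5%), against 10.3% of tested genes.

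Falls outnumbered rises in a mixed list that holds both inhibitors and drivers of the cell cycle. Of 24 CDK inhibitors, D-type cyclins and p53 targets, 2 rose (8.33%, against 15.5% over all genes) and 9 fell (37.5%, against 13.7%). Falls numbered 11 without E113Q replicate 3, 5 without E113Q replicate 1 and 15 after the rescaling. Cdkn1a, the p53-induced inhibitor p21, had 169, 168 and 171 TPM in E113K, 256, 250.4 and 241 TPM in E113Q and 273, 272 and 269.7 TPM in WT. E113K was lowest without overlap, and Cdkn1a fell by 0.55 ± 0.1 (limma, adjusted p = 0.000594). The p53 targets Phlda3 and Aen also fell, with log2 fold changes of -0.92 and -0.9. Cdkn1b, which encodes the quiescence-associated inhibitor p27, rose by 1.05 ± 0.16 (limma, adjusted p = 0.000157), with 164, 177 and 188 TPM in E113K, 91.1, 94.3 and 70.6 TPM in E113Q and 62.8, 69.5 and 69.7 TPM in WT.

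Several histone genes and chromatin factors tied to replication or the centromere fell with them. Of 11 replication-independent histone variants 8 fell and none rose. The centromeric H3 gene Cenpa had 11.8, 13.4 and 12 TPM in E113K and 112, 97 and 18.7 TPM in E113Q, a log2 fold change of -2.17 ± 0.5 in which E113Q replicate 3 again lay next to the E113K libraries. H2afz, the gene of H2A.Z, whose nucleosomes have an extended acidic patch, fell by 1.33 ± 0.24, and the macroH2A gene H2afy2 fell by 1.38 ± 0.19 (limma, adjusted p = 0.00346, 0.000581 and 4.66e-05). Among 13 tested H2B genes 3 fell (23.1%, against 13.7% over all genes). The highest of these was Hist2h2be, with 36.2, 34.9 and 34.5 TPM in E113K, 107, 99.1 and 154 TPM in E113Q and 22.7, 21.8 and 23.2 TPM in WT, so that E113Q exceeded both other groups. It fell by 1.72 ± 0.19 (limma, adjusted p = 5.33e-06), and Hist1h2bk fell by 2.08. Hist2h2bb fell by 1.15, with a log2 fold change of -0.75 without E113K replicate 1. Values of H2B genes are uncertain because the copies are nearly identical.

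Of 43 tested genes in a list meant for proteins that bind the acidic patch, 8 rose and 8 fell, with a median of 0.1. Binding to the patch was not checked for single members, Cenpn and Ezh2 included. Each share was 18.6%, near the 15.5% and 13.7% over all genes, and 16 fell after the rescaling. Those that fell most were the centromere protein gene Cenpn (log2 fold change -1.88), the ubiquitin ligase pair Brca1 (-1.54) and Bard1 (-1.11), and the Polycomb methyltransferase gene Ezh2 (-1.24), which had 17.8, 20.6 and 20.9 TPM in E113K, 55.2, 63.4 and 31.2 TPM in E113Q and 47.9, 43.9 and 54.2 TPM in WT. Without E113Q replicate 3 the counts were 3 and 12, the rises numbered 3 and 4 without E113K replicates 2 and 3, and the falls numbered 4 or 5 when any other library was left out. Of 65 subunits of chromatin remodelling complexes, 10 rose and 2 fell, shares at or below those of all genes. After the rescaling 15 rose and 18 fell, and without E113Q replicate 3 7 rose and 10 fell, so the balance of rises and falls depends on the scaling and on that library. Rises numbered 6 and 5 without E113K replicates 2 and 3. The remodeller gene Chd8 rose by 0.95 ± 0.16 (limma, adjusted p = 0.000372), with 46.7, 47.1 and 46.9 TPM in E113K and 24.5, 24 and 23.1 TPM in E113Q. Among 33 histone chaperones and H2B ubiquitin enzymes 3 rose and 7 fell (21.2%, against 13.7% over all genes), or 14 after the rescaling, the fallen led by the chaperones Asf1b (log2 fold change -1.95) and Hjurp (-1.21), which serve DNA replication and the centromere.

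Targets of ATF4, the transcription factor of the amino acid and integrated stress responses, fell in E113K, 21 of 33 against 1 that rose, with a median of -0.61. Unlike the division genes, this list showed no gap between E113Q replicate 3 and its mates: relative to WT its median was -0.54, -0.46 and -0.56 in the E113K libraries and -0.01, -0.06 and -0.12 in the E113Q libraries. Without E113Q replicate 3, 19 members fell with a median of -0.57, and 15 to 19 fell without any other E113 library. Mthfd2, an enzyme of mitochondrial folate metabolism, had 29, 29.3 and 27 TPM in E113K, 69.9, 67.5 and 68.9 TPM in E113Q and 75, 69.3 and 83.2 TPM in WT. E113Q overlapped WT and E113K lay far below both, a log2 fold change of -1.25 ± 0.2 (limma, adjusted p = 0.000163). The stress-induced factor gene Atf3 had 1.86, 1.54 and 1.84 TPM in E113K, 7.35, 7.55 and 7.67 TPM in E113Q and 4.83, 3.93 and 5.29 TPM in WT, and fell by 1.63 ± 0.15 (limma, adjusted p = 5.69e-07). The lipoprotein receptor gene Vldlr fell by 1.59, and the leucine transporter gene Slc7a5 fell by 1.4, a call lost without E113K replicate 1 or E113Q replicate 1 (adjusted p up to 0.0617). The Atf3 promoter is printed with its copy of TGATGNAA, the composite site of C/EBP and ATF factors, in capitals. The copy lies on the strand opposite to that printed, so the capitals read TTGCATCA.
Atf3 (chr1:191183284-191183483, minus strand): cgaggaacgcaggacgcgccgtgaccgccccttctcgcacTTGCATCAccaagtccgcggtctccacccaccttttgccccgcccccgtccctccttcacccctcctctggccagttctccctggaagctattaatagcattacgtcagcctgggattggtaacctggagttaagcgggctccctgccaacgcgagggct
This motif was found in 11 of 27 genes of the list with a window (40.7%), against 2.68% of tested genes, and membership of the list rests on known targets of the factor.

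Genes of cholesterol and fatty acid synthesis rose together in E113K. Of 34 tested members 23 rose and none fell, with a median of 0.89, and 29 had all E113K libraries above all E113Q libraries. Relative to WT the median of the list was 0.67, 0.7 and 0.73 in the E113K libraries and -0.42, -0.46 and 0.16 in the E113Q libraries, so that E113K lay above WT, E113Q replicates 1 and 2 below it and replicate 3 slightly above it. Insig1, the sterol-regulated brake on SREBP processing, had 230.1, 243 and 238 TPM in E113K, 57.6, 58.2 and 107 TPM in E113Q and 90.2, 87.7 and 91.3 TPM in WT. Its rise was 1.72 ± 0.33 (limma, adjusted p = 0.000834). The enzymes of the later cholesterol pathway moved alike: Hsd17b7 rose by 1.62 ± 0.31, with 45.1, 48.8 and 46.9 TPM in E113K, 11.3, 12.7 and 21.6 TPM in E113Q and 13, 13.4 and 12.9 TPM in WT. Nsdhl rose by 1.58 ± 0.3 (limma, adjusted p = 0.000939 for Hsd17b7 and 0.000948 for Nsdhl). The sterol reductase gene Tm7sf2 rose by 1.77, a call lost without E113K replicate 1 or 3 or without E113Q replicate 1 or 2 (adjusted p up to 0.0783). Without E113Q replicate 3 28 members rose with a median of 1.13, and over all alternatives between 16 and 29 did. Against WT, 19 were higher in E113K, and none was higher and 3 were lower in E113Q.

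The promoters of Hsd17b7 and Nsdhl are printed because sterol genes commonly pair a site of SREBP with a CCAAT box. Capitals mark CCAAT on either strand.
Hsd17b7 (chr1:169969156-169969355, minus strand): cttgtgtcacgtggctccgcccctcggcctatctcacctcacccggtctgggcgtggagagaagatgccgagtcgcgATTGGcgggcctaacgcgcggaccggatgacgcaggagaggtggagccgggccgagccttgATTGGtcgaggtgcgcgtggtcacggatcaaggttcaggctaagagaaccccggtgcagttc
Nsdhl (chrX:72918371-72918570, plus strand): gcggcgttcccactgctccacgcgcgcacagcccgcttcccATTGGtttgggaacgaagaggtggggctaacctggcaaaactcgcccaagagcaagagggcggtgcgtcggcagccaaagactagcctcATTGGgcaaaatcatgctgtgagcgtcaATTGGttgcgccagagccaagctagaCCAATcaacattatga
Hsd17b7 holds 2 and Nsdhl 4 such boxes in the stretch shown. Of 24 list members with a window, 21 held CCAAT (87.5%, against 44.1% of tested genes), and 1 held TCACNCCAC, a form of the sterol response element, against 1.3% of tested genes. Among cholesterol efflux and lipid carrier genes 5 of 13 were higher (38.5%) and 1 was lower (7.69%), against 15.5% and 13.7% over all genes. Apod, a lipocalin apolipoprotein, rose by 2.03 ± 0.5 and the cholesterol exporter Abca1 by 1.67 ± 0.21, while the related Abca9 fell by 1.5 (limma, adjusted p = 0.00547, 1.66e-05 and 0.00339).

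Targets of YAP and TEAD, the transcription factor pair restrained by Hippo kinases, also leaned upward. Of 22 tested, 15 rose and none fell, with a median of 0.54. The count of rises was 9 without E113K replicate 2, without E113K replicate 3 or without E113Q replicate 3. Relative to WT the list median was 0.71, 0.7 and 0.72 in the E113K libraries and -0.02, -0.06 and -0.13 in the E113Q libraries. Lats2, a Hippo kinase that is itself a target, had 29.9, 32.1 and 32.1 TPM in E113K, 15.4, 14.2 and 14.1 TPM in E113Q and 10.1, 10.4 and 10.7 TPM in WT. The groups did not overlap, and the rise was 1.06 ± 0.1 (limma, adjusted p = 8.80e-07). The adaptor gene Amotl1 rose by 1.09 ± 0.19 and Tead3 by 1.04 ± 0.21 (limma, adjusted p = 0.000357 and 0.00129). The matricellular gene Cyr61 had 213, 223 and 217 TPM in E113K and 37.1, 33.6 and 135 TPM in E113Q, with E113Q replicate 3 well above its mates. Its rise of 1.96 lost its call when any library but E113Q replicate 3 was left out (adjusted p up to 0.114). The next stretches carry the TEAD motif GGAATG in capitals, on either strand, for Cyr61 and for 1 of 3 RefSeq starts of Tead3.
Cyr61 (chr3:145649936-145650135, minus strand): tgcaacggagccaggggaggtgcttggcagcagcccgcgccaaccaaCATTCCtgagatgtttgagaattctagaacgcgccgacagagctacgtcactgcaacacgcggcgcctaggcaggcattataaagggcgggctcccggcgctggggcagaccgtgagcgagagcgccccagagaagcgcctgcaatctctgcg
Tead3 (chr17:28350551-28350750, minus strand): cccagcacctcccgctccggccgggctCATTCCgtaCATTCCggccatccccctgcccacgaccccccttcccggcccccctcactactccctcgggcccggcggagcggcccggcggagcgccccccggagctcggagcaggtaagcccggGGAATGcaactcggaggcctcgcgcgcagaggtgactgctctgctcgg
GGAATG was found in 13 of 16 list members with a window (81.2%), against 13.8% of tested genes, and the list was drawn from known targets.

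Actin-linked and serum-response genes moved in part with them. Among 13 smooth muscle and contractile genes 5 rose (38.5%) and 2 fell (15.4%), against 15.5% and 13.7% over all genes. The median was 0.02. Acta2, smooth muscle actin, had 334, 337 and 345 TPM in E113K, 179, 169.6 and 175 TPM in E113Q and 104, 97.8 and 96.3 TPM in WT, and rose by 0.95 ± 0.15 (limma, adjusted p = 0.000208). Tropomyosin Tpm1 rose by 1.3 and Synpo2, an actin-bundling protein gene, by 1.41, while the myosin light chain gene Myl9 fell by 1.07. Of 24 immediate early genes 7 rose (29.2%) and 1 fell (4.17%), with 4 rises without E113K replicate 2 or without E113K replicate 3. The MAP kinase phosphatase gene Dusp1 had 49.6, 51.2 and 52.5 TPM in E113K and 15.8, 13.5 and 23.4 TPM in E113Q and rose by 1.52 ± 0.26, and Egr3 rose by 1.43 ± 0.29 (limma, adjusted p = 0.000334 and 0.0013).

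Genes of the basement membrane, the sheet of laminin, nidogen and collagen IV under epithelia and around fat and muscle cells, rose in E113K, 7 of 10 with a median of 0.96, and 1 fell. These shares were 70% and 10%, against 15.5% and 13.7% over all genes. Rises numbered 5 to 7 with 1 E113 library left out. Nid1, a nidogen that links laminin to collagen IV, had 149, 169 and 168 TPM in E113K, 39.5, 43.4 and 24.7 TPM in E113Q and 42.3, 43.5 and 42.3 TPM in WT. E113Q overlapped WT or lay below it and E113K was highest, a rise of 2.18 ± 0.18 (limma, adjusted p = 1.77e-07). Nid2 rose by 1.48, a call lost without E113Q replicate 1 or 2 (adjusted p up to 0.0615). The laminin chain gene Lama5 rose by 1.52 ± 0.15 and stood highest in WT, with 6.35, 7.06 and 6.72 TPM in E113K, 1.41, 1.51 and 2.18 TPM in E113Q and 31.5, 34.1 and 34 TPM in WT. Lamb3, a chain of the epithelial laminin 332, fell by 1.53 ± 0.24 (limma, adjusted p = 1.06e-06 for Lama5 and 0.000156 for Lamb3). Its receptor chains fell too: Itgb4 had 2.95, 5.91 and 3.14 TPM in E113K, 26.8, 23 and 30.9 TPM in E113Q and 18.8, 15.7 and 12.8 TPM in WT, and Itga6 11.8, 12.8 and 12.9 TPM in E113K, 29.2, 30.1 and 54.5 TPM in E113Q and 49.2, 53.1 and 55.4 TPM in WT. They belong to a list of 21 adhesion receptors in which 5 rose (23.8%, against 15.5% over all genes) and 6 fell (28.6%, against 13.7%). Rises numbered 3 without E113K replicate 2 or E113Q replicate 1. The log2 fold changes of Itgb4 and Itga6 were -2.52 ± 0.21 and -1.47 ± 0.19 (limma, adjusted p = 1.36e-07 and 2.46e-05). The epithelial marker Cdh1 ran the same way, at 0.494 to 0.651 TPM in E113K and 1.93 to 3.55 TPM in E113Q, with Epcam at or near 0 in all 6 libraries, and the part of epithelial-type cells in these falls was not tested.

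Other matrix genes leaned the same way. Over all genes 15.5% rose and 13.7% fell. Matrix proteases and their inhibitors gave 10 rises of 17 (58.8%), or 7 to 9 with 1 E113 library left out. They gave 1 fall (5.88%). That fall was lost without E113K replicate 1 or 3 or E113Q replicate 1, and joined by another without E113Q replicate 2 or 3. Adamts1, which cleaves large proteoglycans, had 816, 883 and 911 TPM in E113K, 199, 207 and 111 TPM in E113Q and 56.3, 65.1 and 57.2 TPM in WT. All 3 groups were separate, with a rise of 2.38 ± 0.31 (limma, adjusted p = 2.43e-05), and the related aggrecanase gene Adamts5 rose by 1.57 ± 0.26 (limma, adjusted p = 0.000226). Elastic fibre and matricellular genes gave 11 rises (40.7%) and 1 fall (3.7%) of 27, and 8 to 10 rises with 1 E113 library left out. Thbs2, an antiangiogenic thrombospondin, had 134, 148 and 161 TPM in E113K, 18.4, 18.3 and 13.1 TPM in E113Q and 33.5, 35.5 and 35 TPM in WT, a rise of 3.09 ± 0.18 (limma, adjusted p = 2.15e-09). Its neighbour on chromosome 17, the calcium-binding matricellular gene Smoc2, had 86.5, 88.3 and 97.1 TPM in E113K and 18, 23.5 and 6.92 TPM in E113Q, against 389.7, 399 and 375 TPM in WT, and rose by 2.57 ± 0.37. Of 18 collagen genes outside cartilage 6 rose (33.3%) and 1 fell (5.56%), and 5 to 7 rose with 1 E113 library left out. The beaded-filament chain gene Col6a3 rose by 0.99 ± 0.23, and Col12a1, a fibril-associated collagen, by 0.98 ± 0.19 (limma, adjusted p = 0.00418 and 0.00115). The main fibrillar chain Col1a1 did not pass, with 1467, 1455 and 1496 TPM in E113K and 2021, 1866 and 1686 TPM in E113Q (log2 difference -0.33 ± 0.12, limma, adjusted p = 0.0544), and was called lower without E113Q replicate 3 (adjusted p = 0.0392).

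Few cartilage genes were expressed. Of 26 listed genes with values 12 were tested, of which 3 fell (25%, against 13.7% over all genes) and 1 rose, and 2 fell when any 1 E113K library or E113Q replicate 3 was left out. Col2a1, the collagen of cartilage, had 29.1, 27.2 and 27.1 TPM in E113K, 111, 100.3 and 161 TPM in E113Q and 44.4, 42.1 and 43.6 TPM in WT. E113K lay below WT and E113Q above it, a log2 fold change of -2.09 ± 0.29 (limma, adjusted p = 5.56e-05). The cartilage matrilin gene Matn4 fell by 3.07 ± 0.59 (limma, adjusted p = 0.000889), with 4.59, 5.69 and 23.2 TPM in E113Q against under 0.4 TPM in E113K. Sox9, the chondrocyte master regulator, fell by 0.61 ± 0.21 (limma, adjusted p = 0.0351), with 78.7, 73.6 and 75.7 TPM in E113K and 103, 104 and 147 TPM in E113Q. This call was lost without any 1 E113K library or without E113Q replicate 3 (adjusted p up to 0.148). Small leucine-rich proteoglycans, which bind collagen fibrils, had a median of 0.74, with 9 of 11 above 0. Of them 3 rose (27.3%, against 15.5% over all genes) and 2 fell (18.2%, against 13.7%). Rises numbered 1 without E113K replicate 2 or 3 and 2 without any other library. Lum, or lumican, rose by 2.23 ± 0.75 (limma, adjusted p = 0.0322), a call lost without any library but E113Q replicate 3 (adjusted p up to 0.134). Prelp fell by 2.24 ± 0.11 (limma, adjusted p = 1.87e-10), with 26.3, 23.7 and 22.7 TPM in E113K, 117, 116 and 122 TPM in E113Q and 59.9, 65.1 and 56.5 TPM in WT.

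Regulators of the other lineages open to these cells were divided. Pparg, the adipocyte master regulator, had 80.00, 80.4 and 91.3 TPM in E113K, 38.6, 42.3 and 28.3 TPM in E113Q and 18.9, 21.4 and 21 TPM in WT. The 3 groups were separate, and Pparg rose by 1.2 ± 0.12 (limma, adjusted p = 1.01e-06). The preadipocyte factor Zfp423 rose by 1.2 ± 0.23, whereas Cebpa, the partner of PPARγ in adipocytes, fell by 1.45 ± 0.18 and the triglyceride synthase gene Dgat2 fell by 1.62 ± 0.41 (limma, adjusted p = 0.000939, 1.26e-05 and 0.00687). Of 17 adipocyte genes 4 rose (23.5%) and 2 fell (11.8%), against 15.5% and 13.7% over all genes. Runx2, the osteoblast master regulator, had 25.8, 27.1 and 23 TPM in E113K, 16.3, 18.1 and 15.6 TPM in E113Q and 11.3, 16.7 and 12.8 TPM in WT, a difference of 0.57 ± 0.31 that did not pass (limma, adjusted p = 0.184). The phosphate regulator Phex rose by 2.26 ± 0.21 (limma, adjusted p = 4.28e-07). Of 12 bone genes 3 rose (25%, against 15.5% over all genes) and 1 fell (8.33%, against 13.7%). Falls numbered 3 without E113Q replicate 3 and 0 without any other library. Among 15 stromal markers 5 rose (33.3%, against 15.5% over all genes) and 1, Thy1, fell (6.67%, against 13.7%). The rises were led by the patterning factor Twist2 (1.72), the stem cell niche chemokine Cxcl12 (1.46) and the receptor Pdgfra (1.17). Cxcl12 had 2423, 2522 and 2510.1 TPM in E113K, 928, 942 and 843 TPM in E113Q and 939, 975 and 920.4 TPM in WT, so that E113K alone was high and E113Q overlapped WT. Thy1 fell by 0.55 ± 0.19 (limma, adjusted p = 0.0414), a call lost without any 1 E113K library and without E113Q replicate 3, where the log2 difference was -0.27 (adjusted p up to 0.223).

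Called members of the BMP ligand and receptor, TGF-β and Wnt lists rose more often than they fell, and BMP targets did not. Of 12 BMP ligands, receptors and antagonists 6 rose (50%, against 15.5% over all genes) and 1 fell (8.33%, against 13.7%). Rises numbered 5 without E113Q replicate 3 and 4 when any other E113 library was left out. Among the rises were the ligand gene Bmp4 (1.15 ± 0.23) and the antagonist genes Bmper (1.72 ± 0.15) and Grem1 (1.51 ± 0.39). Grem1 was at 125, 142 and 137 TPM in E113K and 78.1, 73.8 and 17.1 TPM in E113Q, and its difference was 0.82 without E113Q replicate 3. Of 11 tested BMP targets 1 rose (9.09%) and 3 fell (27.3%). The response gene Id1 rose by 0.77 ± 0.17, while Atoh8, Dlx1 and Dlx5 fell. The calls of Dlx1 and Dlx5 were lost without any library but E113Q replicate 3 (adjusted p up to 0.145 and 0.132). In the TGF-β list 7 of 22 rose (31.8%) and 2 fell (9.09%), and 5 to 7 rose with 1 E113 library left out. Pmepa1, an induced feedback inhibitor, had 46.4, 46.2 and 49.7 TPM in E113K, 12.6, 13.3 and 8.11 TPM in E113Q and 11.8, 10.5 and 11.4 TPM in WT and rose by 2.0 ± 0.24, and the signal transducer gene Smad3 rose by 1.42 ± 0.2 (limma, adjusted p = 1.34e-05 and 4.45e-05). In the Wnt list 8 of 20 rose (40%), 5 without E113K replicate 2, and 1 fell (5%). Against the rise of the antagonist gene Dkk2, the agonist gene Rspo3 fell by 2.1 ± 0.15 (limma, adjusted p = 2.02e-08), with 8.11, 6.67 and 6.94 TPM in E113K, 29.98, 32.3 and 41.1 TPM in E113Q and 0.0768, 0.219 and 0.23 TPM in WT. Its receptor gene Lgr4 rose by 1.16 ± 0.2 and Notch3, a receptor of mural cells, by 1.82 ± 0.21 (limma, adjusted p = 0.000466 and 7.66e-06). Cyp26b1, which degrades retinoic acid, fell by 3.54 ± 0.31 (limma, adjusted p = 2.41e-07), with 2.21, 2.62 and 2.07 TPM in E113K and 26.3, 26.2 and 74.8 TPM in E113Q.

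Chemokine genes leaned upward, and interferon-stimulated genes were called at about the rate of all genes. Among 21 chemokine and NF-κB target genes 9 rose (42.9%, against 15.5% over all genes) and 2 fell (9.52%, against 13.7%). Without E113Q replicate 3, 6 rose and 3 fell. When any other E113 library was left out, 7 or 8 rose and 1 fell. The monocyte attractant gene Ccl2 rose by 1.84 (limma, adjusted p = 0.0146), and without E113Q replicate 3 the difference was 1.52 and the call was lost (adjusted p = 0.0633). Ccl9 rose by 1.45 ± 0.2, while the T cell attractant gene Ccl5 fell by 1.81 ± 0.35 (limma, adjusted p = 3.46e-05 and 0.000956). Of 36 interferon-stimulated genes 4 rose (11.1%) and 5 fell (13.9%), and without E113Q replicate 3 the counts were 1 and 9. Rises numbered 2 and 1 without E113K replicates 2 and 3, and 7 and 8 without E113Q replicates 1 and 2. Ifih1, the RNA sensor MDA5, had 0.0505, 0.089 and 0.0212 TPM in E113K, 9.67, 10.2 and 4.28 TPM in E113Q and 0.031, 0.0394 and 0.0724 TPM in WT. It was near 0 in E113K and WT and fell by 3.03 ± 0.22 (limma, adjusted p = 2.02e-08). The immunoproteasome subunit gene Psmb9 fell by 1.74 ± 0.28, and the interferon signalling gene Irf9 rose by 1.08 ± 0.19 (limma, adjusted p = 0.000202 and 0.000523).

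Whether lysine and glutamine differ at E113 as they do at the other residues was asked with interaction contrasts, which set the E113K minus E113Q difference against the E71K minus E71Q or E76K minus E76Q difference. These share no library. Relative to E71, the difference was more positive at E113 for 17.1% of genes and more negative for 16.1% (2025 and 1915 of 11871, limma, adjusted p below 0.05). Relative to E76 the shares were 9.62% and 19.8% (1142 and 2347), and of the calls 32.7% were positive, against 47.8% after the rescaling. Over all tested genes the lysine minus glutamine difference at E113 correlated at -0.13 with that at E71 and at 0.0568 with that at E76. These values are a description over genes, which are not independent replicates.

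The division genes gave the widest contrast. The G2/M list had a median difference between lysine and glutamine of -1.77 at E113, against 1.28 at E71 and 0.91 at E76, and 47 of 47 members passed the interaction with either residue, all of them more negative at E113. Relative to the WT mean the list medians by library were 0.4, -0.1 and -0.71 in E71K and -1.12, -1.65 and -1.46 in E71Q. They were 0.18, 0.21 and -0.96 in E76K and -1.18, -1.15 and -1.15 in E76Q. At E71 and E76 the glutamine mutant was thus the lower one, and at E113 the lysine mutant was. In each of E113Q, E71K and E76K, replicate 3 was the lowest of its group. The G1/S list followed, with 45 and 44 of 47 more negative at E113 than at E71 and E76. The ATF4 list had medians of -0.61 at E113, 0.53 at E71 and 0.77 at E76, with 24 and 27 of 33 more negative at E113. At E71 the groups overlapped by library for the ATF4 list. Relative to WT its medians were 0.01, -0.59 and -0.78 in E71K and -0.96, -0.93 and -0.73 in E71Q.

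For sterol and fatty acid synthesis genes the median was 0.89 at E113, -0.7 at E71 and 0.45 at E76, and 31 of 34 members were more positive at E113 than at E71 and 2 than at E76. The differences at E71 and E76 were not tested against each other. The E76 count was 13 after the rescaling, 7 without E113Q replicate 3, 4 without E76K replicate 3, and 1 without E113Q or E76K replicate 1 or 2. At E71 the groups overlapped by library, with list medians of -0.33, -0.74 and 0.2 in E71K and -0.24, 0.7 and 0.75 in E71Q. Of single genes, Dkk2 was at or under 0.3 TPM in the E71 and E76 groups, and its interaction was 3.66 ± 0.2 relative to E71 and 3.37 ± 0.2 relative to E76 (limma, adjusted p = 1.18e-09 and 1.81e-09). Perp was at or under 0.161 TPM there, with interactions of -4.84 ± 0.21 and -4.9 ± 0.21 (limma, adjusted p = 4.66e-11 and 2.86e-11). Pparg was higher with lysine than with glutamine at E113 and, by 1.89, at E76, and lower at E71, with a log2 difference of -2.54 (limma, adjusted p = 1.27e-09 and 8.80e-11).

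**Figure D4:**
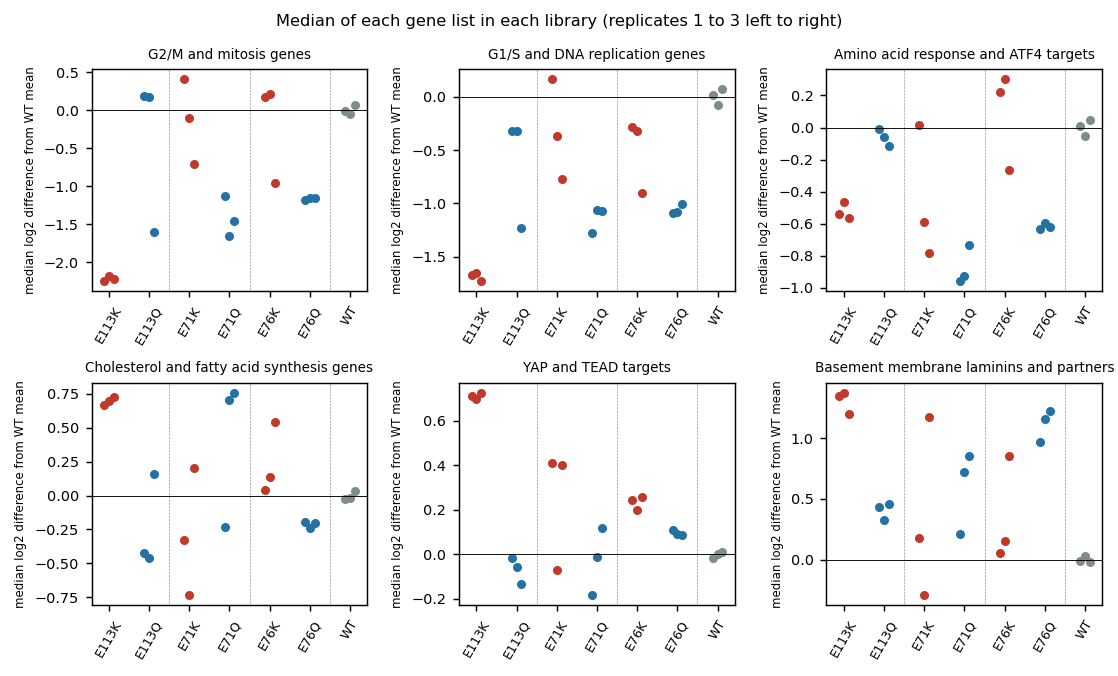
Median over each gene list of the log2 difference of a library from the WT mean, for the 7 groups of 3 libraries, replicates 1 to 3 from left to right within a group. Lysine mutants are red, glutamine mutants blue and WT grey, and dotted lines separate the residues. In the G2/M panel E113K is the lowest group, at -2.25 to -2.17, and replicate 3 of E113Q stands at -1.60, apart from its mates.

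**Figure D5:**
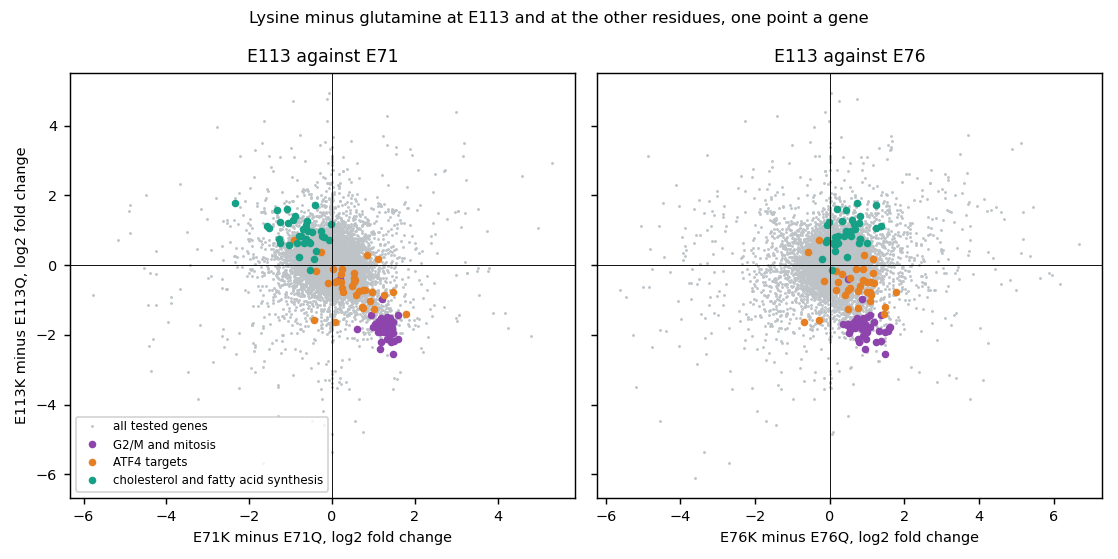
E113K minus E113Q log2 fold change of each tested gene against the lysine minus glutamine difference at E71 (left) and E76 (right), with 3 gene lists coloured. G2/M genes lie below 0 on the vertical axis, at a median of -1.77, and above 0 on both horizontal axes, at medians of 1.28 and 0.91.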

How the data were processed

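Bulk RNA-seq of 21 samples, 3 in each of 7 groups, was analysed from the authors' deposited per-sample table of TPM values. Libraries were made from column-purified RNA with NEBNext Ultra II, per the labels' protocols. Salmon, featureCounts 1.4.4, DESeq and the mm10 build are listed in the submitters' processing notes, with no order or role. No counts were used here, so depth is unknown and no interval that needs it is given. Genes averaging 1 TPM or more across the 6 E113 libraries were transformed to log2(TPM + 1), which understates changes of low genes, and fitted with limma 3.58.1 (R 4.3.3) with an intensity trend on all 21 libraries, which share 1 estimate of spread (14 residual and 3.27 prior degrees of freedom). P-values were adjusted by Benjamini and Hochberg over all tested genes. Strand was not stated, so overlapping genes cannot be told apart. The fit was tested on simulated data.

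Members and gene lists were chosen with earlier results of these data known. Genes named are the 12 largest called rises and falls averaging 5 TPM or more with groups without overlap, up to 4 called members of each list, the 5 largest interactions in each direction, and 7 lineage or proliferation genes. Chromosome 14 genes of the run, marker genes and the H2B genes printed as sequence were named besides. Replicate numbers are shared between groups, but the deviations of same-numbered E113K and E113Q libraries correlated at 0.0303, 0.0544 and -0.00949, so they were not treated as pairs. Alternatives were other pseudocounts, filters, scalings and moderation settings, only the groups compared, a replicate block and each library left out. Figures were drawn with matplotlib 3.10.9 (Python 3.11.15).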

Additional observations from a re-analysis of the deposited data

Results flagged for a closer look

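The genes named here are those whose lysine minus glutamine difference at E113 departed most from that at another residue by the interaction test of limma, among genes averaging 5 TPM or more across the 12 libraries compared. Values are differences of log2 fold changes ± SE, with p-values adjusted over all tested genes, and libraries are given in TPM.

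Relative to E71, Ptgis, the prostacyclin synthase, was 5.91 ± 0.23 more positive at E113 (adjusted p = 1.83e-11), with 50.3, 42.8 and 44.2 in E113K and 26.4, 28.7 and 26.5 in E113Q but 0.603, 0.213 and 0.363 in E71K and 35.1, 60.7 and 55.5 in E71Q. Elastin, Eln, followed at 5.79 ± 1.32 (adjusted p = 0.00285), where E71Q had 8.46, 199 and 270.5, far above the other groups in replicates 2 and 3. The small RNA loci Mir1306, Mir22 and Snord38a gave 6.61, 6.5 and 6.47, and their differences at E113 did not pass alone. Mir1306 and Snord38a were listed at 0 in every E113 library except E113K replicate 2. The interaction of Mir22 was lost without E113K replicate 1 or 3, E113Q replicate 2, E71K replicate 2 or E71Q replicate 2, where it ranged from 4.83 to 6.30. In the other direction Pdlim1, a LIM-domain actin adaptor, gave -6.05 ± 0.26 and Pxdc1 -5.52 ± 0.23 (adjusted p = 3.36e-11 and 3.36e-11). Both were highest in E71K, at 23.7, 15.2 and 17.4 for Pdlim1 and 20.3, 15.3 and 17.7 for Pxdc1. Tmtc4 gave -5.76, Snord72 -5.53 and Mir7655 -5.36.

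Relative to E76, 3 genes of the positive side were lower in E76K than in E76Q. Emb, the monocarboxylate transporter partner embigin, gave 6.26 ± 0.31, Vamp5, a muscle vesicle protein, 5.71 ± 0.22, and cathepsin H, Ctsh, 5.68 ± 0.27 (adjusted p = 1.32e-10, 8.95e-12 and 6.04e-11). Emb had 0.124, 0.127 and 0.194 in E76K and 23.4, 24.9 and 25.3 in E76Q. The loci Mir6950 and Mir6935 gave 8.0 and 6.4, and that of Mir6935 was 4.18 without E113Q replicate 1 and lost its call without E76K replicate 1 (5.70). On the negative side, Gstt3 gave -7.58 ± 0.18, with 12.8, 12.7 and 14.5 in E76K and 0, 0.0633 and 0.126 in E76Q, so that lysine and glutamine had opposite orders at E113 and E76. The matrix gene Abi3bp gave -7.4 ± 0.83 and Slurp1 -6.47 ± 1.07 (adjusted p = 1.30e-14, 4.74e-06 and 0.000272). Thy1, the stromal surface marker, gave -6.73 ± 0.27, with 108, 101 and 108 in E76K, 0.45, 0.622 and 0.344 in E76Q and 62.6, 60.1 and 61.6 in E113K and 77.2, 71 and 134 in E113Q. The neuronal noncoding RNA Bc1 gave -6.63, a call lost without E76K replicate 1 (-5.45). The causes of these differences were not tested.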

How the results depend on the processing

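The count of 3463 genes called between E113K and E113Q became 5357 after median-ratio rescaling and 5352 after quantile normalization. It was 5127 with the locus Mir6236 left out and TPM rescaled, and 4294 in a fit of only the groups compared. It was 1035 with a 2-fold minimum, and ran from 2461 to 3365 with 1 library left out. The interaction with E71 (3940) became 5801 after rescaling, 5905 after quantile normalization and 5575 with Mir6236 left out and TPM rescaled. It became 2267 in a fit of only the groups compared and 2016 with a 2-fold minimum, and ran from 3212 to 5405 with 1 library left out. The interaction with E76 (3489) became 5300 after rescaling, 5407 after quantile normalization and 5014 with Mir6236 left out and TPM rescaled. It became 5181 in a fit of only the groups compared and 1827 with a 2-fold minimum, and ran from 2750 to 3909 with 1 library left out. With a replicate block the counts were 3641, 4131 and 3662. No alternative turned the direction of a called gene for E113K against E113Q or for the interaction with E76, and a pseudocount of 5 turned 1 gene of the interaction with E71. The causes of these shifts were not tested.

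Of 214 called genes named by rule, 164 held their call under every alternative, 50 lost it under at least 1 and 0 reversed. Leaving out E113Q replicate 3 lost 12, each of the other 5 libraries 30 to 34, and no filter on low values 26. TPM carry no depth, so a gene listed at 0 cannot be given a limit of detection.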

Other observations

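Patterning and guidance genes formed further groups in which rises in E113K outnumbered falls. Of 48 T-box, Pax, Osr and related patterning factors 18 rose (37.5%, against 15.5% over all genes) and 3 fell (6.25%, against 13.7%). Osr2, a factor of limb and palate mesenchyme, had 46.4, 47.1 and 51.5 TPM in E113K, 10.3, 7.72 and 7.91 TPM in E113Q and 6.48, 8.65 and 6.5 TPM in WT and rose by 2.36 ± 0.33, and Ebf1, a factor of adipocyte and B cell precursors, rose by 1.64 ± 0.3 (limma, adjusted p = 5.14e-05 and 0.000606). Among 21 axon guidance genes 9 rose (42.9%) and 2 fell (9.52%). With 1 E113 library left out 6 to 10 rose and 1 fell. The receptor gene Nrp1 rose by 1.26 ± 0.16, with 61.1, 69 and 69.2 TPM in E113K, 30.3, 30.5 and 21.4 TPM in E113Q and 9.32, 9.73 and 9.5 TPM in WT, while the secreted ligand gene Sema3c fell by 1.9 ± 0.25 (limma, adjusted p = 2.45e-05 and 2.79e-05). At the imprinted locus of chromosome 17, Airn rose by 1.51 ± 0.34 and Igf2r fell by 1.16 ± 0.25 (limma, adjusted p = 0.00288 and 0.00264). These genes overlap and strand was not stated, so their reads cannot be told apart with certainty.

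Metabolic and redox genes were mixed. Of 32 glycolysis and hypoxia-response genes 6 rose (18.8%) and 8 fell (25%), against 15.5% and 13.7% over all genes. Falls numbered 6 when any 1 E113 library was left out. The vasodilator peptide gene Adm, a hypoxia target, had 87.9, 84.2 and 89.8 TPM in E113K, 12.2, 14.3 and 17.2 TPM in E113Q and 7.35, 8.43 and 9.61 TPM in WT and rose by 2.52 ± 0.2, whereas Ankrd37, another hypoxia target, fell by 1.31 ± 0.27 (limma, adjusted p = 8.02e-08 and 0.00165). Among 32 NRF2 and thiol redox genes 8 rose (25%, against 15.5% over all genes) and 5 fell (15.6%, near the 13.7% over all genes). Falls numbered 3 when any library but E113Q replicate 3 was left out. The quinone reductase gene Nqo1, a standard NRF2 target, fell by 1.04 ± 0.18 and the glutathione transferase gene Gsta4 rose by 1.3 ± 0.36 (limma, adjusted p = 0.000419 and 0.0116). The mitochondrial electron carrier gene Cycs fell by 0.91 ± 0.14, with 41.2, 40.4 and 37.2 TPM in E113K and 74.9, 77.6 and 74.1 TPM in E113Q, and the complex III gene Uqcrq fell by 1.03 ± 0.14 (limma, adjusted p = 0.000131 and 4.45e-05). Within the proteasome, Psmd6, which lies on chromosome 14, fell by 0.83, and Psmc6 and Psmb5, on the same chromosome, rose by 0.63 and 0.58.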
